A study of Mus musculus with 43 samples.

Results

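Some stretches of the mouse genome hold many CCCGGG sites close together and were nevertheless methylated in the colonic epithelium of mice on 2 mg/kg folic acid (FA). A member of this set is a CCCGGG site on chr1 to chr19 (build mm9) with 3 or more other listed sites within 1000 bp and a mean methylation of 50% or more in the 2 mg FA epithelium, taken over at least 4 of 7 libraries with 20 or more reads there. The rule selected 374 of 173449 listed sites, in 209 of 4115 dense regions, a dense region being a run of such closely neighboured sites. Members were chosen by their level in the 2 mg FA libraries, so that level is a description and was not tested.

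All mice were Swiss Webster mice that received azoxymethane (AOM), a colon carcinogen, at 7 weeks of age and then dextran sulfate sodium (DSS), which injures the colonic epithelium and causes colitis, in 4 cycles of 2% DSS for 7 days and plain water for 14 days, starting at 9 weeks of age. They were assigned at 11 weeks of age to chow with 0, 2 or 8 mg/kg FA, stayed on it for 16 weeks and were killed at 27 weeks of age; before that, all had eaten chow with 2 mg/kg FA. Cells were laser microdissected from fixed, embedded colon as non-dysplastic epithelium (ND) or polypoid dysplasia (P), each library from 1 mouse, except that mouse 1856 gave 2 lesions. The first cohort held 0ND (5 libraries), 2ND (7) and 8ND (6), and the second 0ND (6), 0P (6), 8ND (6) and 8P (7), where the number is the FA dose. The labels give AOM and DSS for all 43 libraries and call all ND samples epithelial cells, whereas the study's text also names mice with AOM alone and epithelium microdissected along with lamina propria, which the labels do not tell apart. Since 8 mice gave epithelium to both cohorts, these are not independent sets of animals.

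DNA methylation is a methyl group on cytosine, mostly in CpG pairs, and is copied at each cell division by the maintenance enzyme DNMT1. The methyl groups come from S-adenosylmethionine, which the folate cycle helps to regenerate. CpG-dense stretches, many of them CpG islands at promoters, are as a rule unmethylated in normal tissue. Known exceptions are repeated elements such as endogenous retroviruses, one allele of imprinted control regions, and promoters of some germline genes. Loss of methylation at normally methylated CpGs is a long-known feature of colorectal tumors. The genes and sequence around the members were not analysed here, because the genome at hand is of another build than the site positions.

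Methylation was measured by DREAM (Digital Restriction Enzyme Analysis of Methylation), in which SmaI cuts unmethylated CCCGGG and XmaI then cuts the rest, so that the end of each read tells whether its copy was methylated. Libraries held 1488920 to 16923453 reads on sites. With 20 reads, a site at 50% has a 95% Wilson interval of 29.9% to 70.1%, and with 100 reads one of 40.4% to 59.6%, for counting error only. Percentages are the authors' adjusted values, corrected with spiked standards, unless raw ones are named. The correction multiplied the odds of methylation by 1 factor per library, from 1.24 to 4.04 in the first cohort and from 0.992 to 1.97 in the second. Libraries differed in make-up. Standards took 1.78% to 7.10% of reads in 0ND, 2.27% to 11.2% in 2ND and 3.37% to 48.3% in 8ND of the first cohort, where 2 of 6 8ND libraries were above 30%. In the second cohort the 100 most-read sites took over 8% of reads in 3 of 6 0ND and 3 of 6 8ND libraries and in no polyp library, and the standards took 32.6% to 77.4% of reads in 0P, 6.98% to 52.7% in 0ND, 8.85% to 47.2% in 8ND and 8.80% to 40.3% in 8P.

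Methylated dense sites were rare among dense sites. Of 7900 dense sites with enough reads in 2ND, 374 (4.73%) were members, 7274 (92.1%) were below 10% methylation and 252 lay in between. They were also a small share of methylated sites, 7.45% of 5021, whereas 4182 (83.3%) had 1 or 2 other sites within 1000 bp and 465 had none. The members' 2ND means ran from 50.3% to 100%, with a median of 88.3% and quartiles of 75.3% and 94.5%. Of the members, 170 were at 90% or more, 146 between 70% and 90%, and 58 under 70%. The sites next to the threshold were chr18:81569284 (50.3%) and chr8:86461723 (50.4%) inside it, and chr12:77116186 (49.6%) and chr7:106545198 (49.4%) outside.

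Most sites of these regions were not measured, since of 1204 listed sites in the 209 regions 444 had enough reads in 2ND. In 100 regions a single site had enough reads, so that its neighbours are unknown. Of the 109 regions with 2 or more such sites, 70 had members alone, 199 sites in all, and 7 regions also held a site below 10%. In the 89 regions with 2 or more members, the 2ND means of members of the same region spanned a median of 9.10 percentage points, and in 11 regions over 25 points. Most regions had 1 member (120) or 2 (43), and 46 had 3 or more. Chromosome 6 held 57 members, 14.1% of its dense sites with reads, and 2 of its megabases held 16 members (from position 58111553 to 58477614) and 13 (from 117677614 to 117690629). Next came 12 members on chromosome 13 (50068876 to 50909274) and 9 on chromosome 4 (140590760 to 140881085).

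Part of the dense sites sat at fixed distances from each other. Of 18162 pairs of neighbouring dense sites, 4673 were 156 bp apart, 3110 were 52 bp apart and 1182 were 45 bp apart, and 11161 dense sites (50.1%) stood at one of these 3 spacings. Only 200 of these (1.79%) had enough reads in 2ND, against 69.2% of the other dense sites, and 87 of these 200 were members. The other 287 members stood at other spacings. Sites of repeated sequence can share reads with their copies, and how the authors' mapping treated such reads was not given in the sources used here. The spacings were picked out after they had been counted.

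A site entered a comparison where it had 20 or more reads in every library of both groups. Calls of lower or higher needed both a gap of over 5 percentage points between the means and an unadjusted p below 0.05 from a per-site model of 2 groups with a common variance (two-sided). Only 206 members were compared at least once. The other 168 had a median of 49 reads per library in 2ND, against 220 for those compared. Members of 1 region are not independent.

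Over the 74 members with 20 or more reads in all 43 libraries (52 regions), each library's mean methylation was taken. In the first cohort these means were 85.5% ± 0.982 (SD, n = 5) in 0ND, with a range of 84.6% to 86.7%, 83.7% ± 2.78 (n = 7) in 2ND, from 78.8% to 86.3%, and 82.8% ± 2.52 (n = 6) in 8ND, from 80.2% to 85.9%. In the second cohort, they were 84.4% ± 0.727 (n = 6) in 0ND, from 83.5% to 85.4%, and 83.6% ± 2.05 (n = 6) in 8ND, from 81.8% to 87.4%. Polyps were lower, at 80.3% ± 3.37 (n = 6) in 0P, from 74.3% to 84.6%, and 79.4% ± 1.54 (n = 7) in 8P, from 76.8% to 81.0%. Every 8P library lay below every epithelium library of the second cohort, whereas the highest 0P library (mouse 1839) lay within the 0ND range. On raw percentages, 8P ran from 72.6% to 79.1% and 8ND from 75.8% to 86.8%, and these overlapped.

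**Figure D1:**
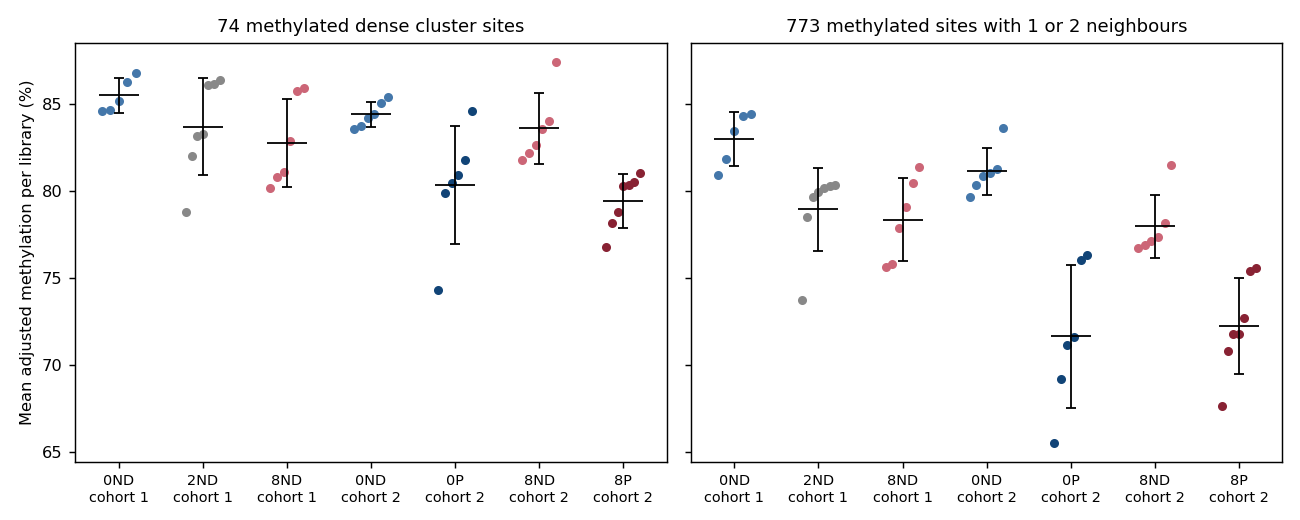
Mean adjusted methylation (%) of each library, 1 point per library, over 74 members with 20 or more reads in all 43 libraries (left) and over 773 methylated sites with 1 or 2 other sites within 1000 bp (right), by group and cohort; bars are the mean and SD, and the axis does not start at 0. The 8P libraries lie between 76.8% and 81.0% on the left, below all epithelium libraries of the second cohort, and both polyp groups are lower still on the right, with means of 71.6% in 0P and 72.3% in 8P.

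Methylated sites in less dense surroundings were lower in polyps by more points. Over 773 such sites with 1 or 2 neighbours, the library means were 81.1% ± 1.35 in 0ND and 71.6% ± 4.10 in 0P, and 78.0% ± 1.79 in 8ND and 72.3% ± 2.73 in 8P. The difference between both kinds of site was not tested, since members were chosen with results of these data known.

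Does high-dose FA lower methylation at these sites in the epithelium? In the first cohort, 146 members (91 regions) were compared between 8ND and 0ND, and 13 (8.90%) were called lower in 8ND and 1 higher, against 3.82% of all 13475 compared sites called lower and 0.594% called higher. The means over the 146 members were 81.9% ± 2.36 in 8ND (from 79.7% to 85.2%) and 84.7% ± 1.33 in 0ND (from 83.1% to 86.3%), a difference of -2.79 points, and the groups overlapped. Over all compared sites the difference was -0.770 points. When mice 1841 and 1858, whose 8ND libraries had over 30% of reads on the standards, were left out, it was -1.82 points over 147 members, and 10 (6.80%) were called lower, against 2.53% of all sites. Of the methylated sites with 1 or 2 neighbours, 303 of 1612 (18.8%) were called lower, with a mean difference of -4.56 points. The called members spread over 12 regions, and their losses ran from 6.20 to 17.1 points. After Benjamini-Hochberg adjustment no site was called in the whole table. An unadjusted p under 0.05, in either direction, was found at 17 of 146 members and at 747 of 13475 compared sites. Called by limma with the same thresholds, 16 members were lower. The share of all sites that limma called lower is not given in any comparison.

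In the second cohort, 113 members (75 regions) were compared and 3 (2.65%) were called lower in 8ND and 2 higher, against 1.31% and 0.145% of all 9666 compared sites. The means were 83.4% ± 2.34 in 8ND (from 80.5% to 87.6%) and 84.9% ± 0.978 in 0ND (from 83.6% to 85.8%), a difference of -1.57 points with overlapping groups. Without the 8ND library of mouse 1830, 7 of 143 members (4.90%) were called lower. The share of all sites without this library is not given, so the rise cannot be read as one of members. Of the 13 members called lower in the first cohort, 8 were compared again in the second, where 6 had a lower mean in 8ND and 1 was called. Their median difference was -7.62 points in the first cohort and -3.84 points in the second. Again no site passed the adjustment. An unadjusted p under 0.05, in either direction, was found at 5 of 113 members and 172 of 9666 compared sites, and limma called 3 members lower.

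The site called in both cohorts was chr19:39323738, which has 6 other sites within 1000 bp and is named because of these calls. In the first cohort it ranged from 90.7% to 97.5% in 0ND (median 94.7%) and from 85.8% to 90.8% in 8ND (median 88.5%), so that the groups touched at 1 library. In the second it ranged from 87.5% to 100% in 0ND (median 92.8%), from 73.9% to 88.3% in 8ND (median 84.6%), from 82.5% to 100% in 0P against 51.6% to 86.0% in 8P (median 76.0%). The 8ND mean was lower by 6.42 points in the first cohort and by 9.73 points in the second. This site was also called lower in 8P than in 0P, by 14.6 points.

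A single called member had no overlap between 8ND and 0ND in the first cohort, chr8:62624239. Sites without overlap are not counted over all sites in any comparison, so such counts of members are descriptions only. Its values were 56.4%, 58.4%, 62.8%, 67.5%, 72.8% and 73.1% in 8ND and 74.5%, 77.1%, 78.0%, 80.6% and 81.5% in 0ND, at 36 to 530 reads (adjusted p = 0.314, Benjamini-Hochberg over all sites of the per-site model). In the second cohort it ranged from 57.4% to 100% in 8ND against 25.5% to 89.6% in 0ND, with wide overlap. The neighbouring member chr8:62624394 was also called lower in the first cohort, with means of 60.3% ± 9.53 in 8ND and 77.3% ± 7.69 in 0ND. Its reads in 8ND ran close to those of the first site, 26 to 438 and 36 to 530, so both may not be separate evidence.

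The 2ND libraries chose the members and are given only as values. Over 198 members with reads in both groups, 2ND was at 83.3% ± 2.51 and 0ND at 85.3% ± 1.22. Over 152 members, 8ND was at 82.2% ± 2.33 and 2ND at 83.2% ± 2.58. Among the mice with epithelium in both cohorts, the mean over the 74 members moved by -0.864 to 0.448 points between cohorts in the 3 mice on 0 mg FA and by -3.97 to 7.23 points in the 5 mice on 8 mg FA. The latter range is wider than the difference between the diets in either cohort.

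Are these sites less methylated in polypoid dysplasia than in the epithelium of the same diet? On 0 mg FA, 139 members (90 regions) were compared, and 17 (12.2%) were called lower in 0P and 4 (2.88%) higher, against 4.79% and 0.576% of all 11109 compared sites. The library means over these members were 78.0% ± 3.13 in 0P (from 73.2% to 81.9%) and 84.2% ± 0.756 in 0ND (from 82.8% to 85.0%), a difference of -6.27 points, and the groups did not overlap. Raw percentages gave means of 77.3% and 82.8%, and these groups overlapped. Over all compared sites the difference was -1.68 points. Polyps were lower than the epithelium of the same mouse in 6 of 6 mice, with differences of -9.55 to -2.38 points. At 14 members (10.1%) the polyp was lower in every mouse, against 3.12% of all compared sites. All sites include unmethylated ones, which have little to lose, and the share of less dense methylated sites lower in every mouse is not given. A lower mean in 0P was seen at 74.1% of members, 80.6% of less dense methylated sites and 35.6% of all compared sites.

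On 8 mg FA, 115 members (76 regions) were compared, and 20 (17.4%) were called lower in 8P and none higher, against 3.5% and 1.63% of all 9969 compared sites. The means were 79.0% ± 2.02 in 8P (from 75.5% to 81.6%) and 83.2% ± 2.39 in 8ND (from 80.2% to 87.5%), a difference of -4.23 points with overlapping groups. Over all compared sites the difference was -0.457 points. In 5 of 6 mice the polyp was lower, with differences of -7.26 to -2.76 points, and in mouse 1830 it was higher by 1.36 points. At 17 members (14.8%) the polyp was lower in every mouse, against 2.28% of all compared sites. The share of less dense methylated sites lower in every mouse is not given, so this gap cannot be read as particular to members. A lower mean in 8P was seen at 75.7% of members, 74.6% of less dense methylated sites and 26.7% of all compared sites.

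The libraries in which the 100 most-read sites took over 8% of reads were all epithelium. Without these, 5 of 166 members (3.01%) were called lower in 0P, against 2.86% of all sites, and 11 of 208 (5.29%) in 8P, against 2.76% of all sites, so that the members' share in 0P was near that of all sites. The mean differences were -5.92 and -3.43 points over members, against -1.69 and -0.489 points over all sites. Each epithelium group then held 3 libraries. The part of these libraries in the calls was not tested. After Benjamini-Hochberg adjustment none of the members was called lower. An unadjusted p under 0.05, in either direction, was found at 21 of 139 members in 0P and 22 of 115 in 8P. Among all compared sites these were 648 of 11109 and 768 of 9969. Limma called 19 and 20 members lower.

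**Figure D2:**
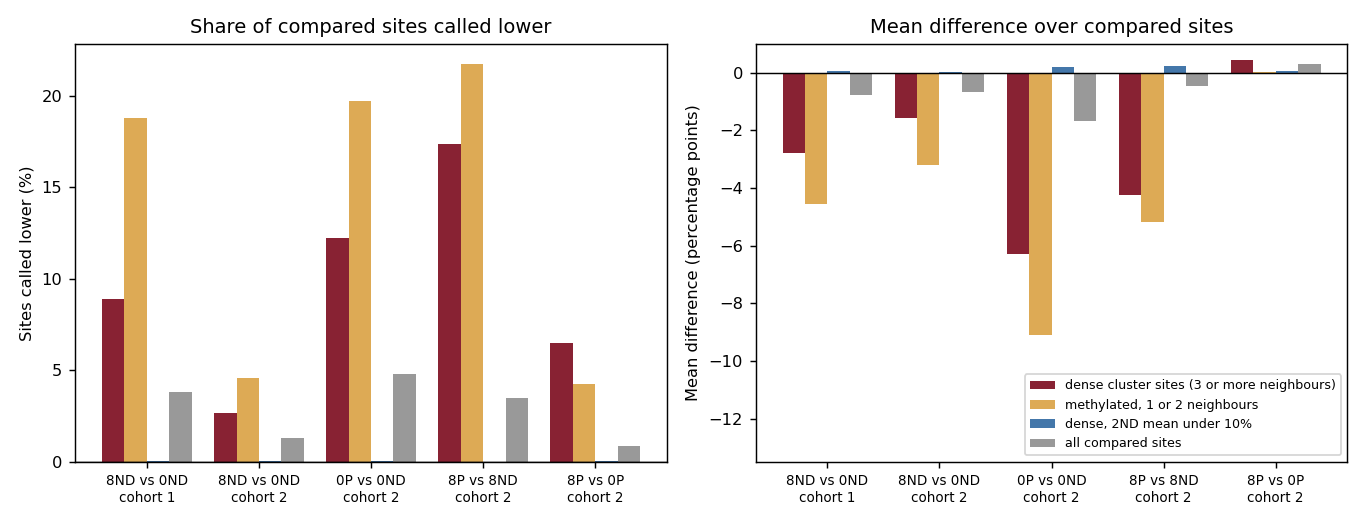
Share of compared sites called lower (%, left) and mean difference in adjusted methylation (percentage points, right) in each of 5 comparisons, for members, methylated sites with 1 or 2 neighbours, dense sites under 10% in 2ND, and all compared sites; bars are single values without error. Members lie between all sites and the less dense methylated sites in 4 comparisons on the left, and dense sites under 10% stay near 0.

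In both polyp comparisons the share called lower was smaller among members than among less dense methylated sites. In 0P, 296 of 1502 (19.7%) methylated sites with 1 or 2 neighbours were called lower, with a mean difference of -9.11 points, and in 8P 272 of 1250 (21.8%), with one of -5.16 points. Among sites at 90% or more in 2ND the shares lay close together in 0P, 5 of 57 members (8.77%) and 36 of 448 less dense sites (8.04%), and likewise in 8P, 9 of 44 (20.5%) and 73 of 362 (20.2%). Between 70% and 90% they were further apart, 6 of 61 members (9.84%) and 148 of 666 less dense sites (22.2%) in 0P, and 6 of 55 (10.9%) and 149 of 574 (26.0%) in 8P. Under 70% they were alike in 0P, 6 of 21 members (28.6%) and 112 of 388 less dense sites (28.9%), and the other way round in 8P, 5 of 16 (31.2%, mean difference -7.80 points) and 50 of 314 (15.9%, -4.06 points). No difference between both kinds of site was tested. Dense sites under 10% in 2ND, which have little to lose, differed by 0.187 points in mean in 0P and by 0.230 points in 8P.

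Members at the 3 fixed spacings had larger mean losses in polyps than the other members. In 0P their mean difference was -8.63 points over 21 sites, against -5.85 points over the other 118 members, and in 8P -6.26 points over 20 sites, against -3.81 points over 95. In 8ND of the first cohort these were -4.80 points over 31 sites, 30 of them with a lower mean, and -2.25 points over 115. In 8ND of the second cohort they were -1.68 and -1.54 points. No test was made, since the split was drawn after the spacings were seen.

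**Figure D3:**
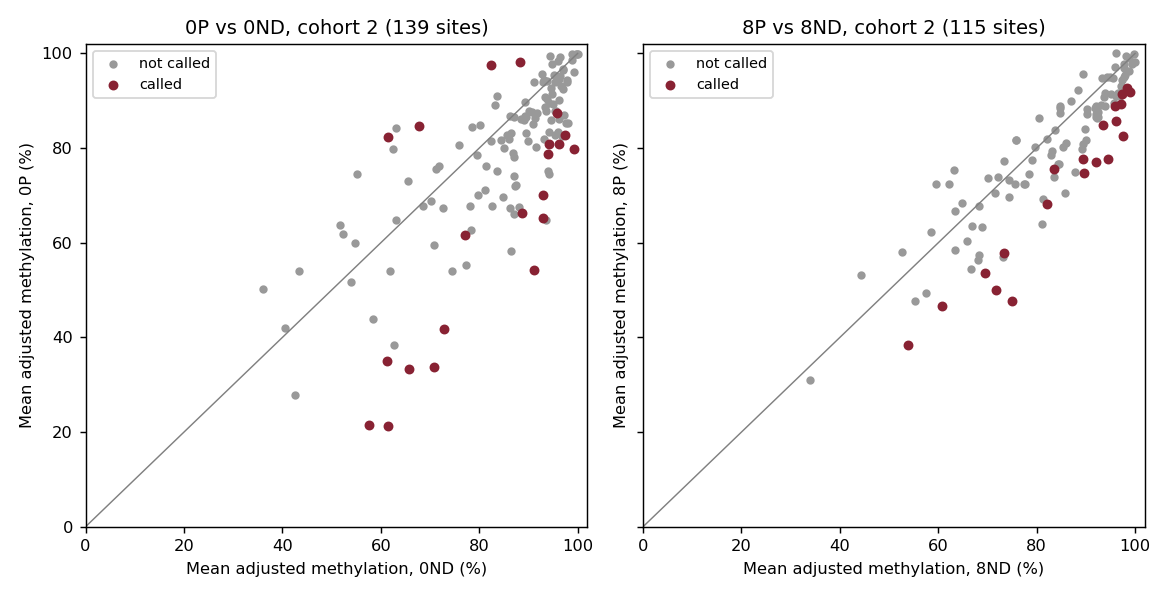
Mean adjusted methylation (%) of each member in polyps (y axis) against the epithelium of the same diet (x axis) in the second cohort, 139 members on 0 mg FA and 115 on 8 mg FA, with the line of equality; dark points are members called lower or higher. Most points lie below the line, 103 of 139 and 87 of 115, and called points above it occur in 0P.

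Few members were called lower in the polyps of both diets. Of 88 members compared in both polyp comparisons, which share no library, 55 had a lower mean in both, 10 in 0P alone, 15 in 8P alone and 8 in neither. Called lower were 6 in 0P and 14 in 8P, and 2 in both, which is 33.3% of the first list and 14.3% of the second. Among all 8232 sites compared in both, 108 were shared, 29.7% of 364 and 38.8% of 278.

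The first shared site was chr12:100468778. It ranged from 20.1% to 48.4% in 0P (median 31.8%) and from 58.0% to 98.5% in 0ND (median 65.9%), without overlap, at 45 to 425 reads. On 8 mg FA it ranged from 15.7% to 67.3% in 8P (median 50.4%) and from 54.3% to 95.4% in 8ND (median 72.1%), with overlap and with 20 reads in the 2 highest epithelium libraries. The difference was -36.9 points on 0 mg FA (adjusted p = 0.0630, Benjamini-Hochberg over all sites of the per-site model) and -27.3 points on 8 mg FA. In the first cohort its epithelium ran from 38.3% to 72.8% over the 3 diets.

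A second member of that region, chr12:100469026, lies 248 bp away and showed the other of the 2 largest losses without overlap. Reads at both sites ran close, 80 to 425 and 73 to 366 in 0P, so they may not be separate evidence. It ranged from 42.5% to 66.3% in 0P (median 54.1%) and from 69.9% to 100% in 0ND (median 95.2%), a difference of -36.8 points (adjusted p = 0.0524, same model). In 8P it had a mean of 58.2% over 7 libraries and in the 5 of 6 8ND libraries with enough reads one of 72.6%. The third member, chr12:100469039, had enough reads in 1 0ND library of the second cohort and was not compared. Over the first cohort the mean of chr12:100469026 was 82.6% in 0ND, 79.5% in 2ND and 77.2% in 8ND.

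The second shared site was chr7:53049850. In 0P it split widely, from 11.1% to 76.6% (median 29.5%), against 50.6% to 77.6% in 0ND (median 58.4%), so the groups overlapped. Mice 1805, 1807 and 1809 had 13.9%, 14.5% and 11.1% in their polyps, whereas mouse 1808 had 76.6% there and 71.2% in its epithelium. In 8P it ranged from 25.3% to 66.4% (median 42.8%) and in 8ND from 52.1% to 72.4% (median 58.7%). The next member of the region, chr7:53049980, 130 bp away, was not called in either polyp comparison, with a median of 77.1% in 0P and 74.0% in 0ND, and of 64.1% in 8P and 66.5% in 8ND. It was called lower in 8ND of the first cohort, at 71.2% ± 5.97 against 80.7% ± 2.33 in 0ND.

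The largest loss of all was at chr1:168338966, named for that reason, although its groups overlapped. It ranged from 11.2% to 37.1% in 0P (median 18.6%) and from 30.6% to 86.0% in 0ND (median 65.9%), a difference of -40.2 points at 25 to 269 reads. In 8P it ranged from 5.14% to 53.1% over 7 libraries (median 30.0%). Of the 8ND libraries 3 had enough reads, at 59.8% to 73.0%, so no comparison was made on 8 mg FA.

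Among members on 8 mg FA, the only called loss without overlap was at chr4:131890616, and no such count over all sites is given. Its values ran from 78.5% to 89.3% in 8P (median 87.1%) and from 89.7% to 100% in 8ND (median 98.3%), a difference of -10.4 points at 71 to 704 reads (adjusted p = 0.159, same model). The member 152 bp away, chr4:131890768, was called lower too, with 91.9% ± 6.13 in 8P and 98.9% ± 1.94 in 8ND, and its ranges overlapped. Both sites had nearly the same reads, 139 to 704 and 131 to 714 in 8P, as sites at both ends of a fragment can have, so they are not separate evidence. On 0 mg FA both had lower means in 0P, 86.3% and 83.5%, than in 0ND, 91.3% and 95.9%, without a call.

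Gains were few. The single member that was higher in 0P without overlap was chr7:7230541, from 95.3% to 99.7% in 0P against 84.3% to 93.0% in 0ND (median 87.2%), a difference of 9.92 points (adjusted p = 0.0416, Benjamini-Hochberg over all sites of the per-site model). It was the only member to pass the adjustment, among 38 sites in all. In 8P it ran from 93.4% to 98.4% and in 8ND from 71.9% to 99.5%, with overlap. It had 281 to 3753 reads in 0ND but 107 to 428 reads in 0P, and the 3 0ND libraries with over 8% of reads on the 100 most-read sites had 1139, 3753 and 2186 reads there. Their part in the difference was not tested.

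**Figure D4:**
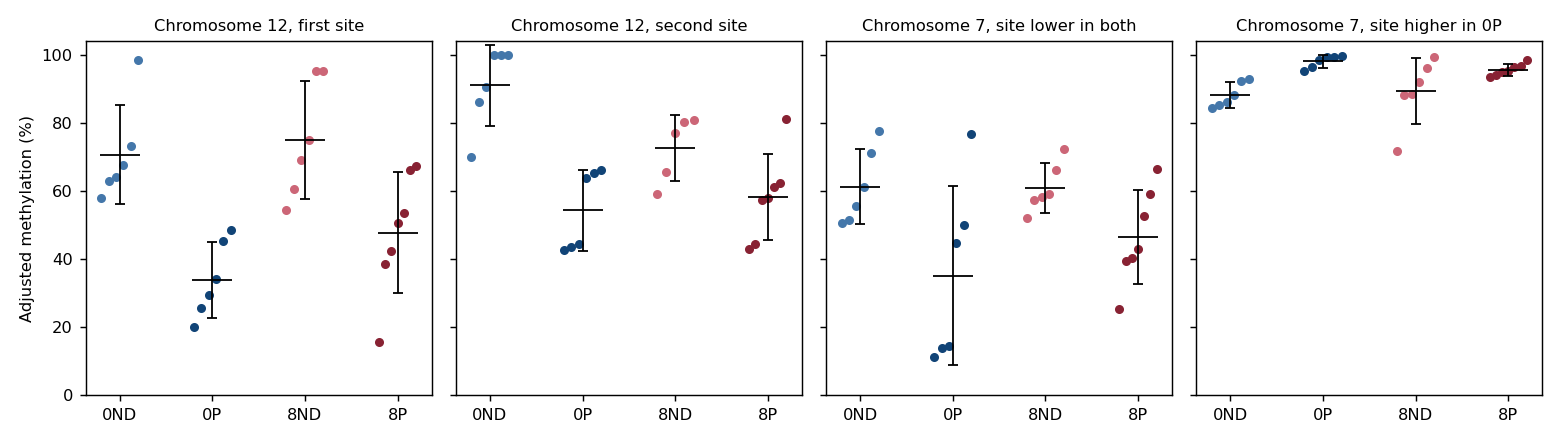
Adjusted methylation (%) at 4 named members in each library of the second cohort with 20 or more reads, by group, with mean and SD. Both sites of the chromosome 12 region, which may not be separate evidence, separate 0P from 0ND. The first chromosome 7 site splits within 0P between 11.1% and 76.6%, and the last site is at 95.3% or more in every 0P library.

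Do polyps differ between the diets? Between 8P and 0P, 169 members (106 regions) were compared, and 11 (6.51%) were called lower in 8P and 3 (1.78%) higher, against 0.879% and 1.68% of all 13772 compared sites. Of the methylated sites with 1 or 2 neighbours, 84 of 1981 (4.24%) were called lower and 40 (2.02%) higher, with a mean difference of 0.0189 points. The means were 77.7% ± 2.07 in 8P (median 78.6%) and 77.3% ± 3.44 in 0P (median 77.6%), a difference of 0.432 points, and all 8P libraries lay within the 0P range of 71.6% to 81.7%. Raw percentages gave -2.45 points and 20 members called lower. When methylated and total reads were fitted by logistic regression instead, 5 members were called lower and 9 higher, against 0.624% and 1.29% of all sites. Without the 0P library of mouse 1807, which had the lowest mean, 19 of 170 members (11.2%) were called lower and the mean difference was -0.786 points. Shares of all sites are given neither for raw percentages nor without mouse 1807, so these counts cannot be read as particular to members. The called loss without overlap was at chr11:87430765, from 75.9% to 92.5% in 8P (median 89.2%) and from 92.6% to 100% in 0P (median 99.1%), a difference of -11.5 points (adjusted p = 0.545, same model). In 0P this site was also called higher than in 0ND, by 15.1 points. No site of the table passed the adjustment. An unadjusted p under 0.05, in either direction, was found at 17 of 169 members and 579 of 13772 compared sites, and limma called 11 members lower.

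Spread between libraries was larger in 0P than in any other group, at members and at less dense methylated sites alike. Over the 74 members with reads in all libraries, the median SD of a site was 12.4 points in 0P, 5.35 in 0ND, 8.29 in 8ND and 6.38 in 8P of the second cohort. Median reads at these sites were 156, 151, 103 and 426 in these groups. Over the 773 methylated sites with 1 or 2 neighbours the median SD was 14.7, 6.76, 10.9 and 8.01 points in the same order. The standards took 32.6% to 77.4% of reads in the 0P libraries, and their part in the spread was not tested. In the first cohort the median SD was 3.29 points in 0ND, 5.11 in 2ND and 4.35 in 8ND, at 202.5, 274 and 162.5 reads.

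Whether loss in polyps depended on the diet was tested with limma as a diet-by-lesion interaction in the second cohort. The fit had no term for mouse and took libraries as independent. Polyps and epithelium came from the same mice, however, and mouse 1856 gave 2 lesions. Of 88 members, 2 had an unadjusted p under 0.05, against 3.61% of all 8232 sites tested, and none passed the adjustment (lowest adjusted p = 0.727). The mean of this interaction over members was 0.376 points, which is the change from 8ND to 8P less the change from 0ND to 0P. Over all sites tested it was 0.958 points.

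Regions were also tested as a whole, by limma on the mean of all compared sites of a dense region with 3 or more of them. Regions with 3 or more members numbered 14, 10, 15, 11 and 21 in the comparisons of 8ND with 0ND in the first and in the second cohort, of 0P with 0ND, of 8P with 8ND and of 8P with 0P. Without a block for mouse, none was called at an adjusted p under 0.05, against 0% of all 1032, 668, 767, 695 and 967 regions tested. At an unadjusted p under 0.05 there were 1, 1, 3, 4 and 2 regions, all lower except 1 of the last 2, against 2.42%, 1.65%, 2.61%, 11.7% and 6.1% of all regions. In the same order, 6 of 14, 7 of 10, 12 of 15, 10 of 11 and 7 of 21 regions had a lower mean. The mean differences over these regions were 0.0788, -0.352, -5.95, -4.25 and 2.15 points.

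Of these, the region on chromosome 7 from 149194858 to 149195249, named region A below, came nearest. All 4 of its sites were members, at 94.3% in 2ND. Its mean ran from 85.0% to 92.0% in 8P (median 89.0%) and from 90.9% to 97.3% in 8ND (median 95.9%), so that only the lowest 8ND library (mouse 1856) lay within the 8P range. The difference was -6.43 points (limma, adjusted p = 0.0764). In 0P it ran from 85.2% to 97.6% and in 0ND from 93.0% to 98.4%.

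On 0 mg FA the lowest p were on chromosomes 10 and 4. The region at 61238871 to 61239408 of chromosome 10 ran from 67.7% to 84.6% in 0P (median 72.8%) and from 81.5% to 96.9% in 0ND (median 87.5%), a difference of -14.8 points (limma, adjusted p = 0.429). With mouse as a block, a fit added after the data were seen, it passed the adjustment (limma, adjusted p = 0.0241) and was the only 1 of 15 member regions to do so, against 0.13% of all regions. On 8 mg FA no region passed with the block, 0 of 11 member regions and 0% of all. The region at 125815974 to 125816735 of chromosome 4 ran from 75.9% to 89.8% in 0P against 90.2% to 96.1% in 0ND, without overlap, a difference of -8.95 points (limma, adjusted p = 0.429). In the chromosome 10 region, chr10:61239408 was called lower in 0P and chr10:61239139 in 8P.

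On chromosome 6 the region from 117689329 to 117691137 had the lowest p of the member regions for 8ND against 0ND in the second cohort, at 84.6% ± 4.41 and 92.5% ± 3.73 (limma, adjusted p = 0.727). In 8P it was at 77.6% ± 5.73 (limma, adjusted p = 0.388 against 8ND). The other member-rich megabase of chromosome 6 gave 9 compared members in both 8 mg FA groups. Their library means ran from 75.6% to 85.7% in 8P against 85.2% to 88.5% in 8ND, with a slight overlap, and from 88.3% to 90.5% in 0ND. In the first cohort, 5 members there ran from 84.8% to 89.3% in 8ND against 89.8% to 94.7% in 0ND, without overlap. Over 5 members, 0P ran from 65.4% to 89.9% and 0ND from 82.7% to 87.9%.

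The 8 regions with most members covered in all 43 libraries, named A to H, were tested one by one over those members (4 in region A, 3 in regions B to D, 2 in regions E to H), with two-sided exact permutation tests adjusted over 40 tests (8 regions in 5 comparisons). None had an adjusted p under 0.05, and 5 of 40 had an unadjusted p under 0.05, 1 of them in 8ND of the first cohort, 3 in 8P against 8ND and 1 in 8P against 0P. The smallest p these designs allow are 0.00216 for up to 6 libraries a group and 0.000583 for 7 against 6. Lower means were seen in 7 of 8 regions in 8ND of the first cohort, 4 of 8 in that of the second, 5 of 8 in 0P and 6 of 8 in 8P against their epithelium. These counts hold for the members covered in all 43 libraries. Over all compared sites of a region, 8ND of the first cohort was higher in regions C, E and G, by 0.127, 2.01 and 0.551 points. The sign turned to lower in region B in 8ND of the second cohort and in region C in both 0P and 8P.

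The 2 smallest p were in 8P, in regions A and D. There, region A was at 88.9% ± 2.20, against 95.4% ± 2.36 in 8ND (exact permutation p = 0.00175, adjusted p = 0.0699). That test takes libraries as independent, although 8P and 8ND come from the same 6 mice and 2 of the 7 polyps from mouse 1856. Within mice, region A was lower in the polyp of 6 of 6 mice, with differences of -12.3 to -2.37 points (exact sign-change permutation p = 0.0312, the smallest 6 mice allow; adjusted p = 0.188 over 16 tests). Region D, on chromosome 17 from 56910616 to 56911522, ran from 79.0% to 90.1% in 8P (median 85.6%) and from 87.6% to 94.5% in 8ND (median 92.7%), a difference of -7.49 points (exact permutation p = 0.00874, adjusted p = 0.140). In 0P it ran from 80.6% to 100% and in 0ND from 90.7% to 95.1%, with means of 91.9% and 92.2%. In 8ND of the first cohort region D was at 88.7% ± 4.85, against 93.9% ± 1.89 in 0ND (exact permutation p = 0.0390, adjusted p = 0.312).

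Region G, on chromosome 11 from 77654785 to 77655509, ran from 87.8% to 94.0% in 8P against 93.2% to 100% in 8ND (exact permutation p = 0.0105, adjusted p = 0.140), and was lower in 6 of 6 mice. Over 3 compared sites of region G, all members, the difference was -0.689 points (limma, adjusted p = 0.918), against -3.97 points over the 2. Region H, on chromosome 5 from 101511840 to 101512677, spread most in 0P, from 46.0% to 94.3%, against 76.7% to 94.7% in 0ND. Region F, on chromosome 6 from 124695009 to 124695623, was at 63.6% ± 9.16 in 0P and 74.0% ± 8.65 in 0ND. The differences of -12.1 points in region H and -10.4 points in region F did not pass the adjustment (adjusted p = 0.380 and 0.371, exact permutation).

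Regions B, C and E had no unadjusted p under 0.05. Region B, on chromosome 7 from 89919645 to 89920540, was at 83.8% ± 3.02 in 8ND and 88.4% ± 4.20 in 0ND of the first cohort, and at 85.3% ± 4.92 and 85.3% ± 4.93 in the second, where 0P was at 78.8% ± 7.79. Region C, on chromosome 15 from 101061929 to 101062542, was at 80.2% ± 5.17 in 0ND and 83.3% ± 7.11 in 0P over its 3 members, whereas over all 4 compared sites 0P was lower, by -5.19 points (limma, adjusted p = 0.637). Region E, on chromosome 2 from 56964091 to 56965057, was the least methylated of the 8 and was higher in polyps in mean, at 61.6% ± 15.8 in 0P and 50.8% ± 5.54 in 0ND (exact permutation p = 0.0931, adjusted p = 0.380). Its epithelium ran from 25.2% to 77.5% over the first cohort.

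**Figure D5:**
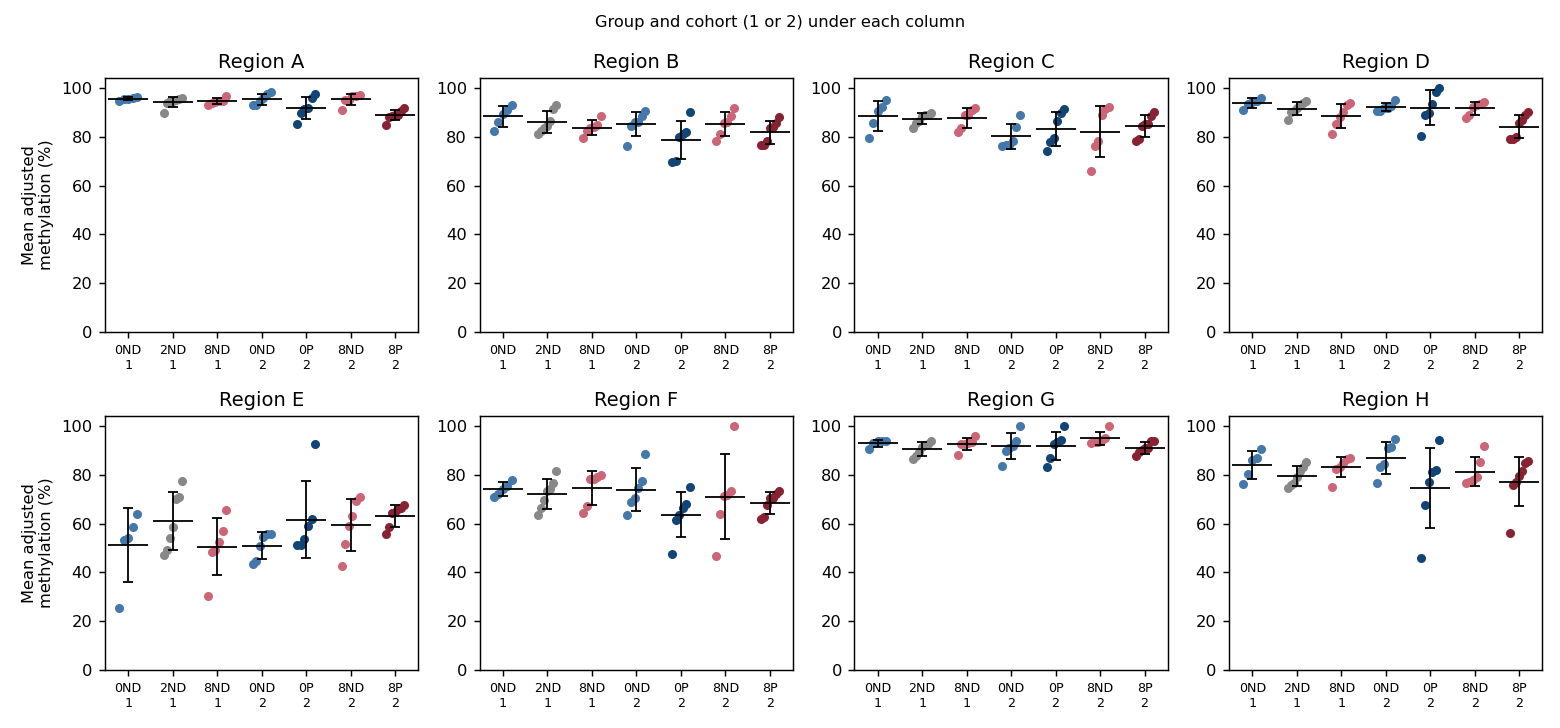
Mean adjusted methylation (%) of regions A to H in each library, 1 point per library, by group and cohort (1 or 2), with mean and SD. Regions A and D have lower means in 8P than in 8ND, region E has higher means in polyps, region F spans 46.6% to 100% in 8ND of the second cohort and region H 46.0% to 94.3% in 0P.

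Over the 5 comparisons, which share libraries, 58 of the 206 compared members (28.2%) were called lower at least once, against 7.89% of all 16164 compared sites. All sites include unmethylated ones, which have little to lose, so this gap cannot be read as particular to members. Less dense methylated sites had a larger share called lower than members in each comparison except that of 8P with 0P. Their share called at least once is not given.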

How the data were processed

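The authors mapped DREAM reads of 43 laser-microdissected samples with Bowtie2 and SAMtools (versions not given in the sources used here; the methods name the human genome, the sites mm9). They deposited, per CCCGGG site, counts of methylated, unmethylated and total reads, the raw methylation percent and a percent adjusted with spiked standards of 0%, 25%, 50% and 100% methylation. It was checked that 1 odds factor per library links both percentages. Deposited percentages of 20 or more reads were compared in Python 3.11.15 (numpy 2.4.6, pandas 2.3.3, scipy 1.17.1), and regions, the interaction and blocks in limma 3.58.1 (R 4.3.3), with all features fitted together. Scripts were tested on simulated data. The members, lists and tests were chosen with earlier results of these data known. Named were the 8 regions with most covered members, up to 2 losses and 1 gain without overlap per comparison, and the sites next to the threshold; chr19:39323738, chr1:168338966, chr7:53049850 and neighbours were named after their values were seen. Polyps and epithelium were paired by mouse number, which marks the same animal; deviations of same-mouse libraries correlated by 0.0297 on 0 mg FA and 0.0747 on 8 mg FA on average. Sites were not assigned to genes or sequence, because the genome used here is of a later build than mm9. Regions within mice were tested as alternatives chosen after seeing the data. Other alternatives are given at the end.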

Additional observations from a re-analysis of the deposited data

Results flagged for a closer look

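In 63 groups of values (library means over members, and regions A to H, in each of 7 groups), 7 held a library far from the others by Dixon's ratio, where chance gives about 1 in 20, or 3.15. In region A these were 1 library in 2ND, at 89.7% with the next at 93.9%, and mouse 1856 in 8ND of the second cohort, at 90.9% with the next at 95.2%. In region E they were 1 library in 0ND of the first cohort, at 25.2% with the next at 53.4%, and mouse 1805 in 0P, at 92.5% with the next at 62.0%. In region G it was mouse 1830 in 8ND of the second cohort, at 100% with the next at 95.2%. In region H they were mouse 1856 in 8ND of the first cohort, at 75.2% with the next at 82.4%, and the second lesion of mouse 1856 in 8P, at 56.0% with the next at 76.0%. No library's mean over the members stood apart in this way.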

How the results depend on the processing

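Most of the 253 alternative values (225) were counted as unchanged, and the exceptions follow. Planned values were so counted within 1.5 times the share called, or within 1 SD of the mean difference. Another rule held for the 18 values added after the data were seen. Tests within mice had to keep the sign and the side of the adjusted p threshold. Region fits with a block had to stay at 0% called lower. With a coverage minimum of 50 reads, 5.56% of 18 members were called lower in 8ND of the first cohort, with a mean difference of 0.0409 points, 4.76% of 42 in 0P, with -3.37 points, and 26.8% of 41 in 8P. Raw percentages gave -4.92 points for 8ND in the first cohort, and for 8P against 0P -2.45 points with 11.8% called lower. Benjamini-Hochberg adjustment left 0% called lower in each comparison. A window of 500 bp gave 5.26% in 8ND of the second cohort. The quasi-binomial logistic model of the counts gave 6.19% in 8ND of the second cohort, 9.57% in 8P against 8ND and 2.96% in 8P against 0P. Without libraries in which the 100 most-read sites took over 8% of reads, 3.01% were called lower in 0P and 5.29% in 8P. For regions with 3 or more members, an unadjusted p with a difference above 5 points gave 7.14%, 10%, 20%, 36.4% and 4.76% in the 5 comparisons in the order of the report, and a coverage minimum of 10 reads gave 5.56% in 8P against 8ND. The causes were not tested. Apart from those printed above, shares of all sites are not given for these alternatives.

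Leaving out 1 library at a time gave shares called lower of 6.80% to 12.9% and mean differences of -3.45 to -2.36 points for 8ND in the first cohort, 2.59% to 4.90% and -2.39 to -1.27 points in the second, 8.63% to 15.3% and -7.06 to -5.10 points for 0P against 0ND, 15.2% to 19.1% and -4.67 to -3.29 points for 8P against 8ND, and 5.29% to 11.2% and -0.786 to 1.32 points for 8P against 0P. With mouse as a replicate block, limma called 12.9% of members lower in 0P and 18.3% in 8P, and the mean within-mouse differences were -6.27 and -4.28 points, so the pairing moved neither share by over 1.5 times. For regions, the block gave 6.67% called lower in 0P (1 of 15, on chromosome 10) and 0% in 8P, and within mice none of 16 tests of regions A to H passed the adjustment, with 2 at an unadjusted exact p under 0.05. Shares of all sites are not given for the runs that left out 1 library or for the limma fits of sites with a block. Depth limited which members could be compared, 206 of 374.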
